A study of Mus musculus with 8 samples.

Results

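The report follows 31 genes of glycolysis and of the transcriptional response to low oxygen in CD11b+ cells. They were taken from a list of gene symbols, chosen with earlier results of these data known. Of the 31, 30 were measured among 18193 genes. Bnip3l had 3 probe sets, each paired with more than 1 gene symbol, and is not analysed here. Each gene was read from the probe set with the highest mean over all arrays, and levels are given as log2 intensity, on which a difference of 1 is a 2-fold change. By mean level among all genes, the members lay from percentile 50.1 (Pfkm) to 99.9 (Aldoa), except Aldoc (36.8) and P4ha2 (14.8). The shares of all genes given below were not matched for level.

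CD11b is an integrin subunit of monocytes, macrophages and neutrophils. The cells came from NOD mice, an inbred strain that develops autoimmune diabetes, or from the congenic strain NOD.Idd3, which carries the diabetes locus Idd3 from another strain. Both strains therefore share the NOD background outside the introgressed interval. Cells of each strain were kept for 4 h at 37 °C in medium alone (unstimulated) or with 5 µg/ml peptidoglycan (PGN), a polymer of bacterial cell walls. There were 4 groups of 2 arrays each, numbered as biological replicates. The sources used here do not give the tissue, the age of the mice or whether animals were pooled. The p-values therefore reflect the spread among these arrays alone, which may be technical.

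Glycolysis breaks glucose down to pyruvate in the cytosol, and myeloid cells that meet bacterial products are known to raise it. Its committed step is phosphofructokinase, whose strongest activator sets the pace of the pathway. That activator is a fructose bisphosphate formed by the PFKFB enzymes, distinct from the one that phosphofructokinase itself makes. When oxygen is scarce, the prolyl hydroxylases encoded by the Egln genes no longer mark the factor HIF-1α for destruction, and it then binds hypoxia response elements in genes for glucose uptake, glycolysis, lactate export and vessel growth. In macrophages HIF-1α also accumulates after Toll-like receptor signals with oxygen present.

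The core of a hypoxia response element is ACGTG or GCGTG. It was searched on both strands in the window from 250 bases before to 50 after the RefSeq start site (assembly GRCm38.p6), using the most upstream start of each gene. A window was found for 29 members, and 23 of them (79.3%) held a match, against 43.8% of 27025 genes of the same table. ACGTG alone was in 62.1% of the members' windows and 19.6% of all, and GCGTG in 51.7% and 32.5%. The members' windows also held more CG pairs, with a median of 24 against 7, and both cores contain one. A match is a description of letters and not a site of binding. The stretches below surround the last match upstream of the start site for members that differed with PGN, since these are the genes the results turn on. They run 5′ to 3′ along the gene with the core in capitals. CACGT and CACGC are the cores on the opposite strand, and CACGTG holds ACGTG on both.
Pfkfb3 (chr2:11553961-11554013, minus strand): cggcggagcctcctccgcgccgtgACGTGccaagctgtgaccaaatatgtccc
Hk2 (chr6:82774478-82774530, minus strand): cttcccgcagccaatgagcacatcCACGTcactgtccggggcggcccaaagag
Pfkm (chr15:98092430-98092482, plus strand): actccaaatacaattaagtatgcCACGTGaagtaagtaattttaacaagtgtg
Ddit4 (chr10:59951857-59951909, minus strand): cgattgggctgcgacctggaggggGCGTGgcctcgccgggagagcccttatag
Adm (chr7:110627579-110627631, plus strand): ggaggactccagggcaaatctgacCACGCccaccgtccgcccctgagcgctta
P4ha1 (chr10:59323256-59323295, plus strand): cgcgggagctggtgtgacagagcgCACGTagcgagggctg
Pfkfb4 (chr9:108991761-108991813, plus strand): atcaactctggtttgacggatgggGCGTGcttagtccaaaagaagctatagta
The match began 60 bases upstream of the start in Pfkfb3, 52 in Hk2, 115 in Ddit4, 54 in Adm and 117 in Pfkfb4. Of the 7 members that rose with PGN over both strains, 6 had a match, and the window of Eno2 held none. No window was found for Slc2a3, which fell. Of the 21 members with a window that did not pass, 16 had one.

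Across the series, the arrays had median log2 intensities of 6.38 to 6.65 over genes, and the correlation across genes within a group was 0.985 to 0.991. Arrays of a group were not closer than arrays of different strains. Between strains, replicate 1 arrays correlated at 0.992 unstimulated and 0.993 with PGN, and replicate 2 arrays at 0.989 and 0.987. The monocyte and macrophage markers Csf1r (13.51 to 14.05), Adgre1 (12.39 to 13.01) and Cd14 (14.17 to 14.65) were bright on every array, as were S100a8 (14.32 to 14.65) and Ltf (12.81 to 14.18) of the neutrophil list. Other genes of these lists were dimmer, such as Ccr2 (6.81 to 8.04) and C1qa (7.23 to 9.19), and Mpo (6.97 to 7.83) and Elane (4.73 to 5.84). Itgam, which encodes CD11b itself, lay between 7.87 and 9.02.

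The first question was how these genes respond to PGN, averaged over both strains with 4 arrays per condition. Pfkfb3 and Ddit4 rose most, by 4.67-fold and 5.25-fold, and Eno2, Adm, Hk2, Pfkm and P4ha1 rose by 1.87-fold to 3.05-fold. Pfkfb4 fell by 1.36 and Slc2a3 by 0.86 on the log2 scale. In these bulk samples, fewer cells of a type and less RNA per cell cannot be told apart. Most enzymes of the lower pathway, Hif1a itself and its hydroxylases did not pass. In all, 7 members rose, 2 fell and 21 did not pass the limma test at an adjusted p of 0.05 (Benjamini-Hochberg over all genes). Thus 30.0% of the members were called, while 11.3% of all genes were called, 4.86% higher and 6.4% lower. Because the list was chosen with earlier results of these data known, this share is a description and not a test of the list. The members' median change was 0.31 and that of all genes 0.05. By replicate number the members' median was 0.43 and 0.18, and with 1 array left out it was 0.16 to 0.46, lowest without the first and highest without the second array of unstimulated NOD.Idd3. With the replicate block, a fit with the replicate number as a term, 10 members rose (7.21% of all genes) and 3 fell (9.73%). The count of rises was 4 without the first array of unstimulated NOD.Idd3 or without the second of PGN-treated NOD.Idd3.

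**Figure D1:**
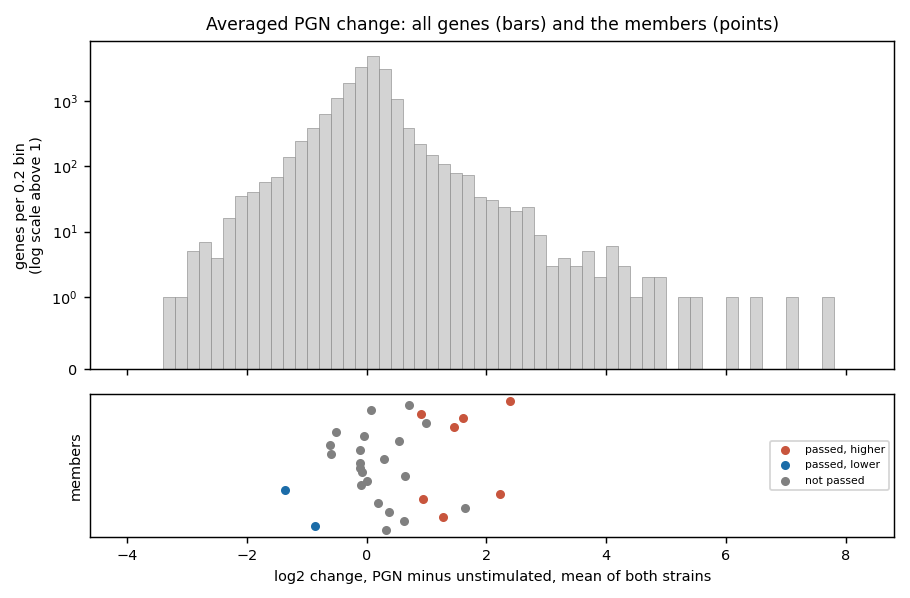
Log2 change with PGN, averaged over both strains, on the horizontal axis. Bars count all 18193 genes in bins of 0.2 (logarithmic above 1) and points below are the 30 measured members, with vertical spread only to separate them. The 7 members that rose lie between 0.91 and 2.39, and the 2 that fell at -0.86 and -1.36.

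Pfkfb3 and Pfkfb4 encode enzymes that make and remove the activator of phosphofructokinase, PFKFB3 with the higher kinase activity of the pair, and they moved in opposite directions. Pfkfb3 stood at 10.56 and 10.43 in unstimulated NOD cells, 12.64 and 12.73 with PGN, 10.62 and 10.37 in unstimulated NOD.Idd3 cells and 12.78 and 12.72 with PGN. The PGN arrays were all above the unstimulated ones by at least 2.02, and arrays of a group lay close together. Its change was 2.22 ± 0.14 (SE, limma adjusted p = 9.34e-05), and its other probe set gave 2.16 ± 0.14. Pfkfb4 stood at 10.73 and 11.23 in unstimulated NOD, 9.54 and 8.90 with PGN, 10.61 and 10.27 in unstimulated NOD.Idd3 and 9.59 and 9.37 with PGN. All PGN arrays were below all unstimulated arrays. The change was -1.36 ± 0.20 (limma adjusted p = 0.00376), from its only probe set.

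Hexokinases trap glucose in the cell by phosphorylation. Hk2, the inducible isoform that binds mitochondria, stood at 10.23 and 10.62 in unstimulated NOD, 11.30 and 12.56 with PGN, 10.88 and 11.63 in unstimulated NOD.Idd3 and 11.92 and 12.72 with PGN. It was higher with PGN within each strain and replicate number, by 1.04 to 1.93, but the 2 conditions overlapped because replicate 2 of unstimulated NOD.Idd3 was above replicate 1 of PGN-treated NOD. The averaged rise was 1.28 ± 0.32 (limma adjusted p = 0.0343, and 0.00156 with the replicate block). It did not pass without replicate 1 or 2 of unstimulated NOD, replicate 2 of PGN-treated NOD, replicate 1 of unstimulated NOD.Idd3 or the second array of PGN-treated NOD.Idd3, where adjusted p was 0.0708 to 0.121, nor with the array-name suffix as a term (0.0573) or on log2(value + 16) (0.0639). Hk1, the widely expressed isoform, stood at 8.87 and 9.48 in unstimulated NOD and 9.39 and 9.96 with PGN. In NOD.Idd3 it stood at 9.24 and 9.18 unstimulated and 9.84 and 10.07 with PGN. Hk1 changed by 0.62 ± 0.20 (adjusted p = 0.0822). It was called with the block (0.0296), with the suffix term (0.0401) and after quantile normalization (0.0300). Hk3, the isoform typical of myeloid cells, changed by 0.38 ± 0.25 (adjusted p = 0.388).

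Phosphofructokinase is built from liver (Pfkl), platelet (Pfkp) and muscle (Pfkm) subunits. Pfkm stood at 5.82 and 6.25 in unstimulated NOD, 6.78 and 6.53 with PGN, 5.74 and 6.23 in unstimulated NOD.Idd3 and 7.07 and 7.45 with PGN. The conditions did not overlap, with a gap of 0.28. It rose by 0.95 ± 0.19 (limma adjusted p = 0.0139), and did not pass without replicate 1 of unstimulated NOD.Idd3 (0.0580) or replicate 2 of PGN-treated NOD.Idd3 (0.0534). Pfkl stood at 8.77 and 9.40 in unstimulated NOD, 9.75 and 11.28 with PGN, 8.49 and 10.20 in unstimulated NOD.Idd3 and 10.63 and 11.78 with PGN. Its second replicate was the higher in every group, and the conditions overlapped. The change of Pfkl was 1.65 ± 0.47 (limma adjusted p = 0.0565, not called). The block left an error of 0.19, and Pfkl was then called (0.00102). It was called too with the variance trend (0.0363), after removal of genes under the 40th percentile (0.0494), and without replicate 1 of PGN-treated NOD (0.0370) or replicate 2 of unstimulated NOD.Idd3 (0.0334). The other probe sets of Pfkl gave 1.54 ± 0.43 and 1.20 ± 0.45. Pfkp changed by 0.20 ± 0.14 (adjusted p = 0.412).

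Among transporters, the glucose carrier gene Slc2a3 (GLUT3) fell. It stood at 12.69 and 12.78 in unstimulated NOD, 11.86 and 11.84 with PGN, 12.85 and 12.83 in unstimulated NOD.Idd3 and 12.23 and 11.77 with PGN. All PGN arrays were the lower, by at least 0.46. The change was -0.86 ± 0.15 (limma adjusted p = 0.00844), and a second bright probe set gave -0.97 ± 0.16. Both carry suffixes for sequence shared between transcripts. Without such probe sets the gene was read from one of mean 5.40 and did not pass (-0.59, adjusted p = 0.296). Slc2a1 (GLUT1), the carrier usually described as induced by inflammation, was between 12.82 and 13.45 on all arrays and changed by 0.32 ± 0.16 (adjusted p = 0.265). Its other probe sets gave 0.51 ± 0.17 and 0.13 ± 0.21. Slc16a3 (MCT4), which exports lactate, stood at 13.24 and 13.22 in unstimulated NOD, 12.17 and 12.73 with PGN, 13.09 and 13.29 in unstimulated NOD.Idd3 and 12.68 and 12.90 with PGN. All PGN arrays were lower, by at least 0.20. The change was -0.59 ± 0.17 (adjusted p = 0.0583, and 0.0259 with the block), and it also passed with a variance trend (0.0204), after removal of genes under the 40th percentile (0.0458), as the mean of all probe sets (0.0446), on log2(value + 16) (0.0482) and without replicate 2 of PGN-treated NOD (0.0353).

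In lower glycolysis 1 of 8 members passed, Eno2, which is 12.5% where 11.3% of all genes were called. Eno2 encodes the enolase isoform known from neurons, which hypoxia induces in many cells. It stood at 8.96 and 9.29 in unstimulated NOD, 10.67 and 10.86 with PGN, 8.77 and 8.24 in unstimulated NOD.Idd3 and 10.09 and 10.08 with PGN. The conditions were apart by at least 0.79, and the rise was 1.61 ± 0.17 (limma adjusted p = 0.000971), from its only probe set. The aldolase gene Aldoa changed by -0.10 ± 0.14, phosphoglycerate kinase Pgk1 by -0.08 ± 0.15, the mutase Pgam1 by -0.11 ± 0.22 and pyruvate kinase Pkm by -0.11 ± 0.14. The 95% intervals of these 4 changes lay between -0.62 and 0.40. Triosephosphate isomerase (Tpi1, 0.63 ± 0.41) and lactate dehydrogenase A (Ldha, 0.30 ± 0.28) had wider errors, and both were higher in replicate 2 than in replicate 1 of every group. Aldoc, a second aldolase gene, lay between 4.51 and 5.52 and changed by 0.00 ± 0.23.

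Pdk1 encodes a kinase that inhibits pyruvate dehydrogenase. It stood at 6.07 and 6.01 in unstimulated NOD, 6.66 and 7.62 with PGN, 6.29 and 7.85 in unstimulated NOD.Idd3 and 7.72 and 8.21 with PGN. The conditions overlapped through replicate 2 of unstimulated NOD.Idd3. The change was 0.99 ± 0.35 (limma adjusted p = 0.112, and 0.0259 with the block), and without that array it was 1.38 (0.0256).

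Hif1a, the oxygen-regulated subunit of HIF-1, was between 12.14 and 13.21 on all arrays and changed by -0.12 ± 0.21 (limma adjusted p = 0.783). Its other probe sets gave changes from -0.43 to 0.04. HIF-1α is controlled mainly through the stability of the protein, which arrays do not measure. The hydroxylase genes Egln1 and Egln3, themselves known HIF targets, changed by -0.05 ± 0.34 and -0.51 ± 0.33, and neither passed. Their other probe sets gave 0.27 ± 0.34 for Egln1, of opposite sign, and -0.74 ± 0.23 for Egln3.

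Of 7 members in the remaining hypoxia group, 3 rose, which is 42.9% where 4.86% of all genes rose. Ddit4 (REDD1), an inhibitor of the growth kinase mTORC1, stood at 11.57 and 10.63 in unstimulated NOD, 13.85 and 13.93 with PGN, 11.93 and 11.79 in unstimulated NOD.Idd3 and 13.84 and 13.88 with PGN. The 4 PGN arrays lay within a range of 0.10, at least 1.91 above the others. The rise was 2.39 ± 0.21 (limma adjusted p = 0.000434). Adm, which encodes the vessel-dilating peptide adrenomedullin, stood at 6.71 and 6.60 in unstimulated NOD, 8.17 and 8.67 with PGN, 6.65 and 5.82 in unstimulated NOD.Idd3 and 7.58 and 7.18 with PGN. The conditions did not overlap, and the rise was 1.46 ± 0.22 (limma adjusted p = 0.00412). A second, dimmer probe set gave 0.93 ± 0.19. P4ha1, a collagen prolyl hydroxylase subunit, stood at 9.41 and 9.76 in unstimulated NOD, 10.58 and 10.72 with PGN, 9.52 and 10.46 in unstimulated NOD.Idd3 and 10.64 and 10.83 with PGN. Its gap between conditions was 0.12, and its rise of 0.91 ± 0.22 (limma adjusted p = 0.0306) did not pass with the array-name suffix as a term (0.0705) or with 7 of the 8 arrays left out in turn (0.0553 to 0.0970), the exception being replicate 2 of unstimulated NOD.Idd3.

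The other 4 did not pass. The mitophagy gene Bnip3 changed by 0.54 ± 0.38, Ankrd37 by 0.71 ± 0.57 and P4ha2 by 0.07 ± 0.16. P4ha2 lay between 3.46 and 4.13, while the 25th percentiles of the arrays were 4.28 to 4.57. Vegfa, the vascular growth factor gene, changed by -0.62 ± 0.20 on its brighter probe set (limma adjusted p = 0.0902) and by 0.44 ± 0.15 on the other, so its direction depended on the probe set. Over all members, 26 of 32 further probe sets had the sign of the one used, and so did all 6 belonging to the 9 members called.

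**Figure D2:**
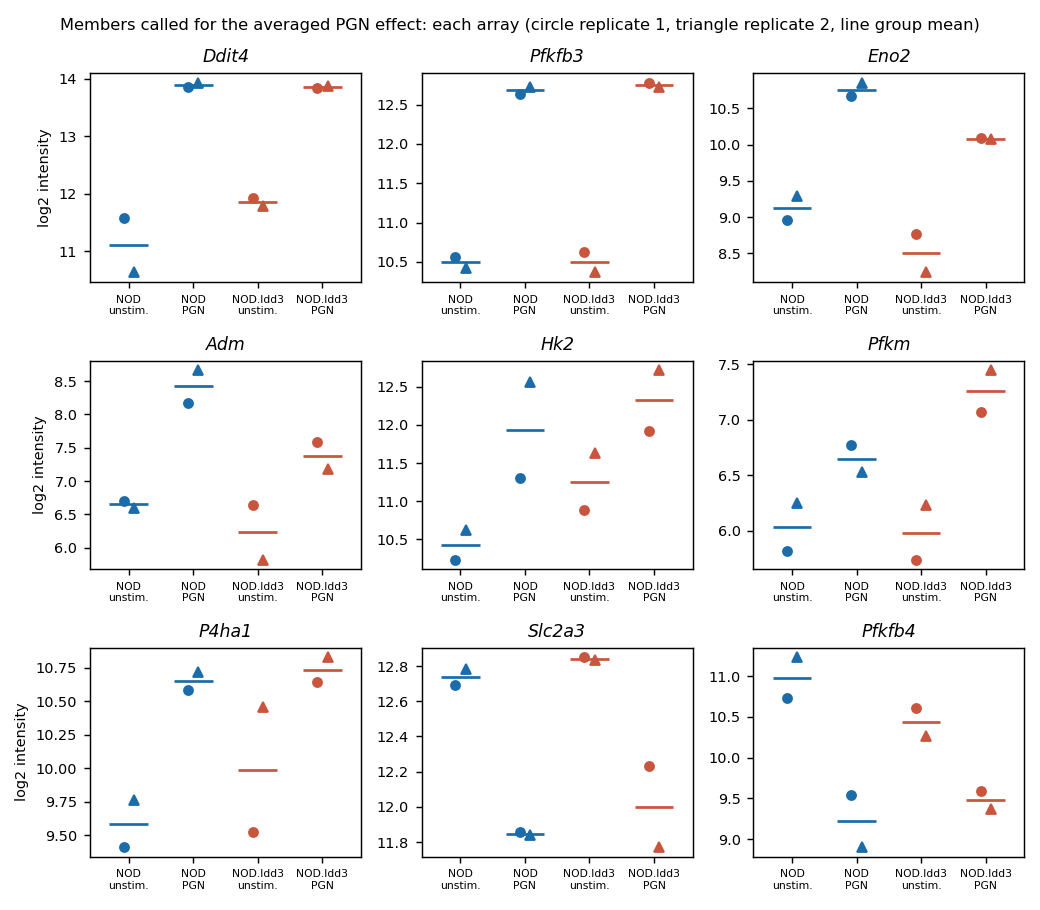
Log2 intensity of the 9 members called for the averaged PGN effect, in the 4 groups, with a circle for replicate 1, a triangle for replicate 2 and a line at the group mean. Vertical scales differ between panels and do not start at 0. All PGN arrays lie beyond all unstimulated arrays for 8 of the 9, and Hk2 is the exception.

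Of all members, 6 were higher on every PGN array than on any unstimulated array, against 8.6% of all genes, and 3 were lower on every PGN array, against 9.41% of all genes. These 9 were the called members without Hk2, and Slc16a3.

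The next question was the response within each strain, with 2 arrays per group. In NOD cells Ddit4 (2.79 ± 0.29), Pfkfb3 (2.19 ± 0.20), Adm (1.77 ± 0.31) and Eno2 (1.64 ± 0.24) rose and Pfkfb4 fell (-1.76 ± 0.29), with limma adjusted p from 0.00179 to 0.0190. These 5 are 16.7% of the members, where 3.94% of all genes were called (1.81% higher and 2.13% lower). Eno2, Adm and Pfkfb4 were not called without replicate 2 of unstimulated NOD (0.0519, 0.129 and 0.107) or replicate 2 of PGN-treated NOD (0.0754, 0.122 and 0.0918), which left 2 rises. Adm was not called on probe sets without shared-sequence suffixes (0.0715). With the block, Hk2 (0.00838), Pfkl (0.0172) and P4ha1 (0.0308) rose and Slc2a3 (0.0355) fell as well, making 7 rises and 2 falls where 3.83% and 4.89% of all genes were called.

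In NOD.Idd3 cells Pfkfb3 (2.26 ± 0.20), Ddit4 (2.00 ± 0.29), Eno2 (1.58 ± 0.24) and Pfkm (1.28 ± 0.27) rose and no member fell, with limma adjusted p from 0.00184 to 0.0401. They are 13.3% of the members, where 3.14% of all genes were called (1.89% higher and 1.25% lower). Without 1 array of this strain the count was 1 or 2, and Pfkfb3 was called each time. Ddit4 then had adjusted p from 0.0517 to 0.121 and Pfkm from 0.0784 to 0.257. Eno2 was called without replicate 1 of unstimulated NOD.Idd3 and otherwise had 0.0600 to 0.144. Pfkm also missed the threshold with the suffix term (0.113), the variance trend (0.0519), log2(value + 16) (0.0521) and without either PGN-treated NOD array (0.0555). With the block, Hk2 (0.0346) and Pfkl (0.00779) rose as well, making 6 rises and 0 falls where 3.67% and 2.97% of all genes were called. With the variance trend Slc2a3 fell (-0.84, 0.0327). Adm changed by 1.15 ± 0.31 (adjusted p = 0.0992) and Pfkfb4 by -0.96 ± 0.29 (0.131), and neither passed.

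The members' median change was 0.29 in NOD and 0.30 in NOD.Idd3, against 0.03 and 0.05 for all genes. By replicate number the median was 0.29 and 0.32 in NOD, but 0.51 in replicate 1 and 0.06 in replicate 2 of NOD.Idd3. Single arrays moved both medians. In NOD it was 0.12 and 0.58 without replicates 1 and 2 of the unstimulated group, and 0.55 and 0.10 without replicates 1 and 2 of the PGN group. In NOD.Idd3 it was -0.06 and 0.61 without replicates 1 and 2 of the unstimulated group, and 0.26 and 0.21 without those of the PGN group. The change had the same sign in both strains for 24 of 30 members (80.0%) and for 70.7% of all genes.

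**Figure D3:**
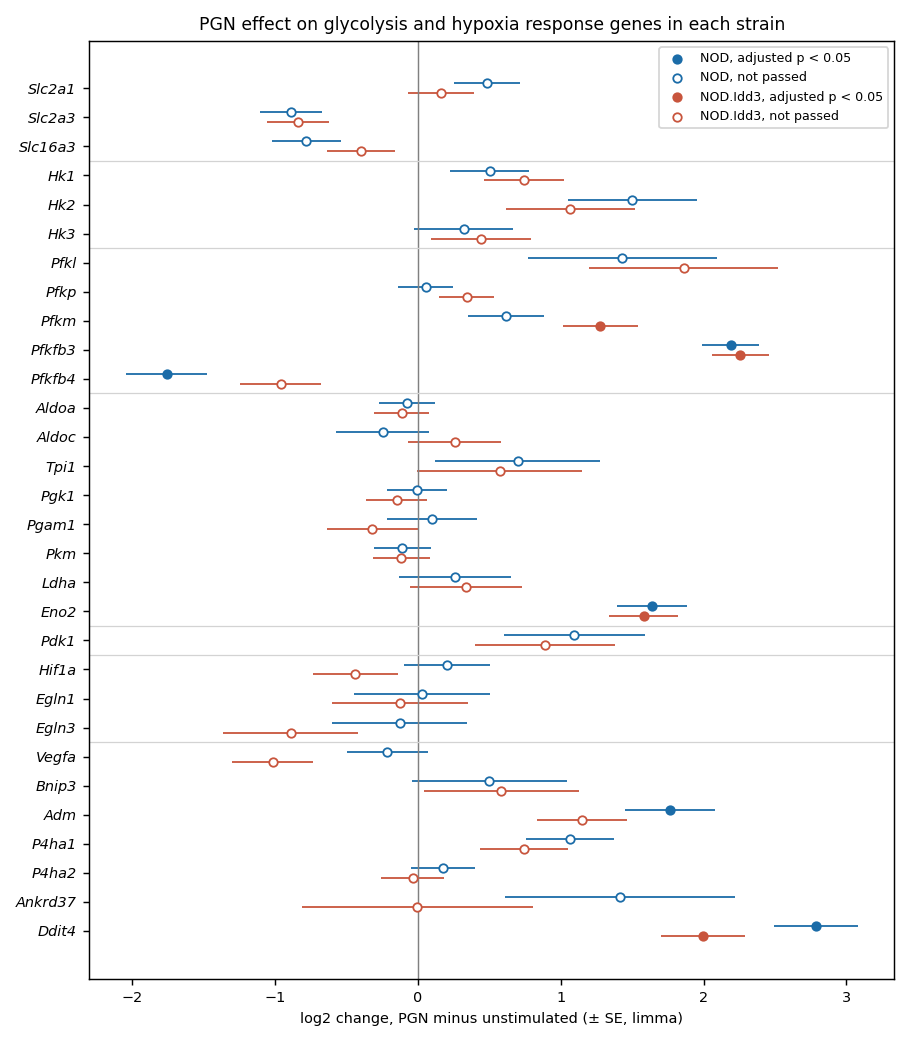
Log2 change with PGN (± SE, limma) of the 30 members in NOD (blue) and NOD.Idd3 (red), grouped by role from glucose transport at the top to other hypoxia genes at the bottom. Filled points passed at an adjusted p of 0.05. Pfkfb3, Eno2 and Ddit4 are filled in both strains.

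The difference in response between strains was tested directly (NOD.Idd3 minus NOD). Limma called no member and no gene, so 0% of all genes were called. At an unadjusted p of 0.05 there were 0 members and 314 genes (1.73%), and with the replicate block 0 genes passed. Pfkfb3 differed by 0.07 ± 0.28, with a 95% interval from -0.57 to 0.71, and Eno2 by -0.06 ± 0.34 (-0.84 to 0.73). For Ddit4 the difference was -0.79 ± 0.42 (-1.73 to 0.16), for Pfkfb4 0.80 ± 0.40 (-0.12 to 1.72) and for Vegfa -0.80 ± 0.40 (-1.72 to 0.11). Ankrd37 had the widest error, at -1.42 ± 1.14. Differences of 2-fold were within the intervals of Ddit4, Pfkfb4 and Vegfa. The value for Vegfa is from its brighter probe set, and the other changed by 0.48 ± 0.21 in NOD and 0.39 ± 0.21 in NOD.Idd3.

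Strain differences at a fixed condition were also not called by limma for any member, unstimulated, with PGN or averaged, with or without the block. All 3 contrasts called 0% of genes, and with the block the averaged contrast called 0.148%. At an unadjusted p of 0.05, 3 members differed in unstimulated cells (3.36% of all genes), 4 with PGN (5.41%) and 5 averaged (6.46%). The 5 were Eno2 (-0.65 ± 0.17), Adm (-0.73 ± 0.22) and Vegfa (-0.48 ± 0.20), lower in NOD.Idd3, and Pdk1 (0.92 ± 0.35) and Ankrd37 (1.42 ± 0.57), higher there, and their adjusted p was 0.593 to 0.759. No member was without overlap between the 4 arrays of each strain, against 2.85% of all genes. The 3′ minus 5′ difference of the Gapdh control probe sets, a measure of RNA or labelling quality, lay at 0.88 to 1.16 on the 4 NOD arrays and at 0.72 to 0.80 on the other 4. That of Actb overlapped between strains, at 0.43 to 0.58 and 0.22 to 0.46. The summed intensity of 6 B cell markers ranged from 1228 to 4274 in NOD cells and from 613 to 1250 in the congenic strain, with a median strain difference of -1.20. Among 10 monocyte and macrophage markers, Mrc1, C1qa, C1qb and C1qc differed by -1.56, -1.42, -1.37 and -1.47 and the other 6 by -0.24 to 0.43, and none of these passed. Their part in the members' differences, and that of RNA quality, was not tested.

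Several members differed between replicate numbers in the same direction in every group. Ankrd37, a small ankyrin repeat gene known as a HIF target, stood at 5.76 and 6.98 in unstimulated NOD, 6.92 and 8.64 with PGN, 7.26 and 9.75 in unstimulated NOD.Idd3 and 8.40 and 8.60 with PGN. Replicate 2 was the higher in each group, by 0.20 to 2.49. The 3′ minus 5′ difference of the Gapdh control was the lower in replicate 2 of each group (0.88 against 1.08, 0.92 against 1.16, 0.75 against 0.80 and 0.72 against 0.77, groups in the same order). That of Actb was lower in replicate 2 of both NOD groups and higher in replicate 2 of both NOD.Idd3 groups. The part of RNA quality in the replicate differences was not tested. Like Ankrd37, 8 further members were higher in replicate 2 of each group. They were Pfkl (0.63 to 1.71), Tpi1 (0.50 to 1.53), Bnip3 (at least 0.39), Egln1 (0.56 to 1.39), Hk2 (0.39 to 1.26), Ldha (0.38 to 0.87), P4ha1 (0.14 to 0.94) and Pkm (0.06 to 0.27). These 9 are 30.0% of the members, against 16.1% of all genes with replicate 2 above replicate 1 in 4 groups. No member had replicate 2 the lower in all groups, against 9.33% of all genes. In PGN-treated NOD and in unstimulated NOD.Idd3, 6 members each were more than 1 log2 unit higher in replicate 2. That is 20% of the members, while 5.07% and 2.64% of all genes differed by more than 1 in either direction. In contrast, Pfkfb3 differed by at most 0.25 and Slc2a3 by at most 0.46 between the arrays of a group. The arrays numbered 1 share a date in their names, and any effect of that date cannot be told apart from the replicate number. The stretches around the last core upstream of the start are given for 4 of these genes, which include HIF targets described in many cell types, in the same format as above.
Ankrd37 (chr8:45999851-45999880, minus strand): ggctgcacatgtcagtgtttgggtACGTGa
Bnip3 (chr7:138909513-138909565, minus strand): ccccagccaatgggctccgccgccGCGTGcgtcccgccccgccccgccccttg
Egln1 (chr8:124949294-124949346, minus strand): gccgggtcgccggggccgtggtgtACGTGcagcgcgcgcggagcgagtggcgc
Ldha (chr7:46845746-46845798, plus strand): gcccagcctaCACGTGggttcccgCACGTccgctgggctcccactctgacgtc
The windows of Tpi1 and Pkm held no match.

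**Figure D4:**
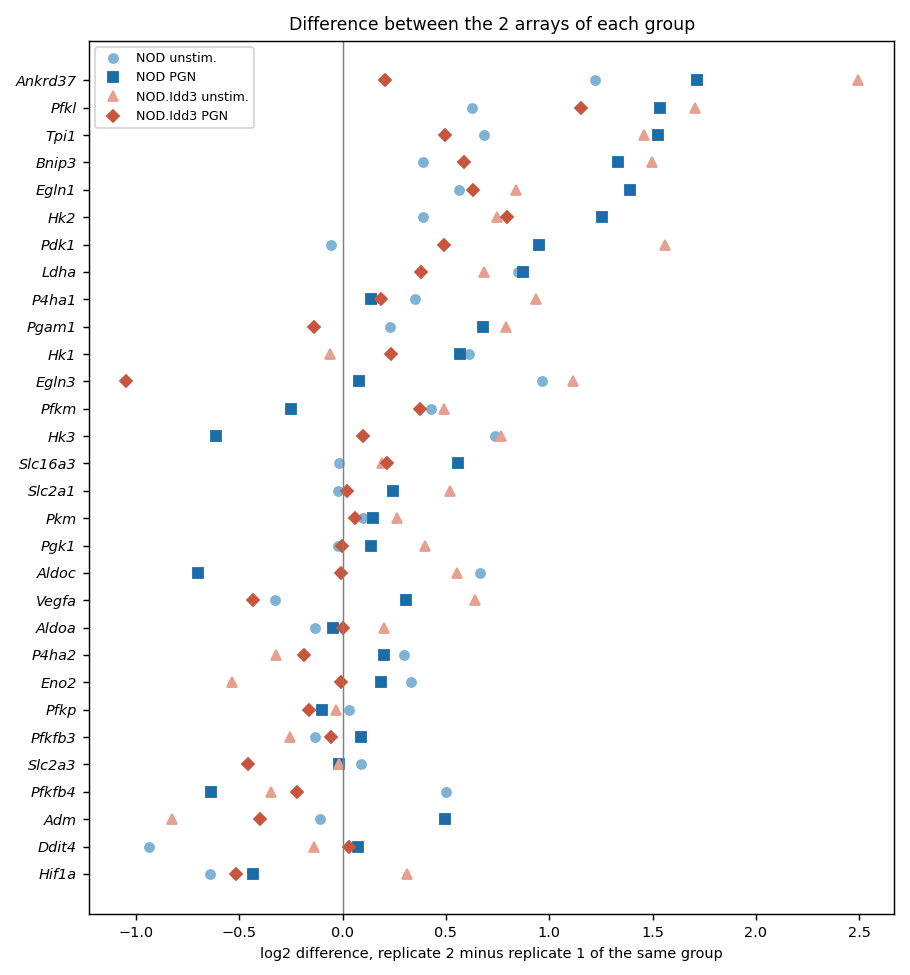
Log2 difference between replicate 2 and replicate 1 of each group for the 30 members, ordered by the mean of the 4 groups, with 1 marker per group. The 4 markers of Ankrd37, Pfkl, Tpi1, Bnip3, Egln1, Hk2, Ldha, P4ha1 and Pkm all lie above 0.

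Around the members, 64 of 75 listed genes of the same pathways were measured. Over both strains 7 rose and 8 fell, which is 23.4% against 11.3% of all genes, and their median change was 0.05, like that of all genes. These genes too were chosen with earlier results of these data known, so the share is a description. Among 19 further hypoxia-induced genes 6 rose and none fell (median 0.39). They were Flt1, a VEGF receptor gene (2.69 ± 0.33), Hilpda, which protects lipid droplets (2.22 ± 0.24), Ndrg1 (1.96 ± 0.16), the transferrin receptor gene Tfrc (1.00 ± 0.19) and the transcription factor genes Nfil3 (0.90 ± 0.17) and Bhlhe40 (0.68 ± 0.15), with limma adjusted p from 0.000311 to 0.0207. Among 9 HIF regulators 1 passed (11.1%, where 11.3% of all genes were called). It was Vhl (-0.61 ± 0.14, limma adjusted p = 0.0270), whose product marks HIF-1α for destruction. With 1 array left out in turn, Flt1, Hilpda, Ndrg1 and Nfil3 were called 8 of 8 times. Tfrc was not called without replicate 1 of unstimulated NOD.Idd3 (0.0502) or as the mean of its probe sets (0.181). Bhlhe40 was called 3 of 8 times, with adjusted p up to 0.0920 otherwise, and Vhl only without replicate 1 of PGN-treated NOD (otherwise up to 0.114).

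Among 18 other glycolysis genes, the lactate carrier Slc16a1 (MCT1) rose by 1.81 ± 0.20, its relative Slc16a7 (MCT2) was 2.82-fold lower and the kinase Pdk2 fell by 0.91 ± 0.24. Where 6.4% of all genes fell and 4.86% rose, 3 of 10 pentose phosphate and glycogen genes fell and none rose. These were the glycogen phosphorylase gene Pygl (-1.84 ± 0.18), Rpia (-0.74 ± 0.15) and transketolase Tkt (-0.56 ± 0.14). Among 8 genes around DDIT4 and mTORC1, 2 fell: Deptor, which encodes another mTOR inhibitor (-2.39 ± 0.23), and Ddit4l (-0.87 ± 0.21). Deptor thus moved opposite to Ddit4. Limma adjusted p for these 8 genes was 0.000712 to 0.0458. Slc16a1, Slc16a7, Pygl and Deptor were called 8 of 8 times with 1 array left out. Rpia was not called without replicate 2 of unstimulated NOD.Idd3 (0.0656) or replicate 2 of PGN-treated NOD.Idd3 (0.0549). Pdk2, Tkt and Ddit4l were each called 1 of 8 times, with the others up to 0.137, 0.138 and 0.106. Within strains, 5 related genes rose and 3 fell in NOD (12.5%), and 5 rose and 2 fell in NOD.Idd3 (10.9%), where 3.94% and 3.14% of all genes were called. With 1 array left out these counts were 1 to 4 and 0 to 6 in NOD, and 0 to 5 and 0 to 2 in NOD.Idd3. The lowest were without replicate 2 of PGN-treated NOD (1 rise and 0 falls) and without replicate 2 of either NOD.Idd3 group (0 and 0). Ndrg1, Hilpda, Flt1, Slc16a1, Pygl and Deptor were called in both strains. Of these calls only that of Ndrg1 in NOD was made 8 of 8 times with 1 array left out. Flt1 in NOD was called 3 of 8 times (adjusted p up to 0.265), Hilpda in NOD.Idd3 4 of 8 (up to 0.103), and Deptor, Pygl and Slc16a1 in NOD.Idd3 5 of 8 each (up to 0.140, 0.161 and 0.137). With the block 10 related genes rose and 11 fell, where 7.21% and 9.73% of all genes did.

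**Figure D5:**
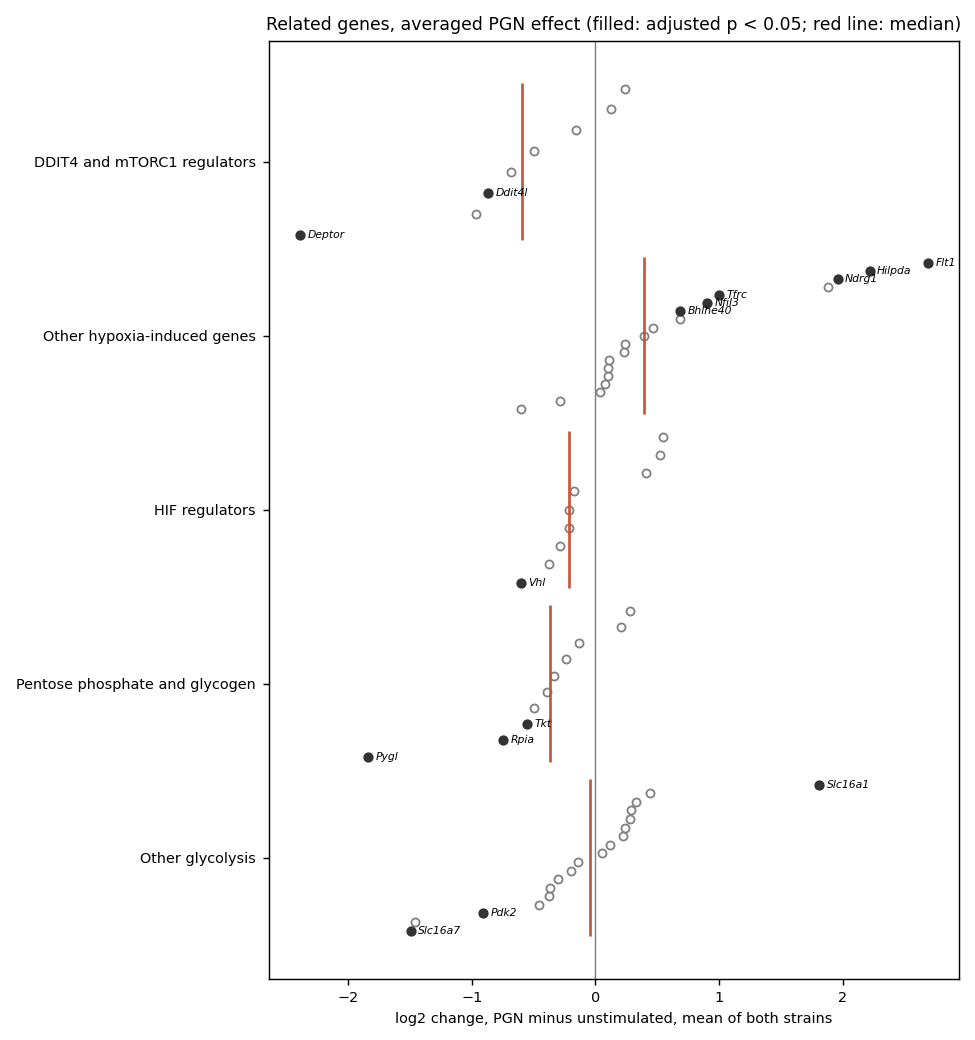
Log2 change with PGN, averaged over both strains, of the 64 measured related genes in 5 groups, each point 1 gene, spread vertically by rank. Filled and named points passed at an adjusted p of 0.05 and the red line is the group median, which is 0.39 for the hypoxia-induced genes and -0.59 for the genes around DDIT4 and mTORC1.

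Some genes of the cell type marker lists moved with PGN as well. Summed intensity of 5 platelet markers was 1838 to 6450 on unstimulated and 731 to 1331 on PGN arrays, and 2 of the 5 fell. These were the bright genes Pf4 (-1.55) and Ppbp (-2.67), while Itga2b (0.32), Gp1bb (0.03) and Gp9 (-0.12) did not pass. For 5 T cell markers it was 3535 to 6355 and 1542 to 2446, and 1 fell, the brightest, Cd3d (-1.48). Cd3g (-0.92), Cd2 (-0.23), Cd3e (-0.18) and Thy1 (0.75) did not pass. The sum of 10 neutrophil markers was 105760 to 141923 and 96615 to 102247, and 3 fell (Mmp8, Mmp9 and Cxcr2), while none of 10 monocyte and macrophage markers passed (50388 to 57656 and 51912 to 62851). For 4 plasma cell markers it was 6230 to 8046 and 10008 to 18909, and 2 rose (Sdc1 and Irf4), while Jchain (-0.23) and Mzb1 (-0.29) did not pass. None of 4 erythroid or 6 B cell markers passed. The erythroid sum was 80.2 to 217 on unstimulated and 88.0 to 135 on PGN arrays, and its globin gene Hba-a1 lay between 3.06 and 4.35. The B cell sum was 704 to 4274 and 613 to 2174. The part of these shifts in the changes above was not tested.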

How the data were processed

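The deposited table holds 1 intensity per probe set and array for 45101 probe sets on 8 single-channel arrays. RMA is named in the submitters' processing notes, and the authors' intensity values are on a linear scale (3.97 to 42906), so log2 was taken here, without further normalization. Its version is unstated in the sources used here. Probe sets were named through the platform annotation: 34945 had 1 symbol, 932 several and 9160 none, and 64 controls were left out. Symbols were updated through RefSeq (GRCm38.p6, 34741 matched). Each gene was read from its brightest probe set.

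The 4 group means were fitted in limma 3.58.1 (lmFit, eBayes; R 4.3.3) and contrasts tested over 18193 genes, with 4 residual and 4.69 prior degrees of freedom, and called at a Benjamini-Hochberg adjusted p under 0.05. Errors are limma standard errors. The number of arrays limits the precision.

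The members, the related genes and the marker lists were chosen with earlier results of these data known. All members were to be named, those called in any contrast or with the replicate block with every array's value, and called related genes up to 10 per contrast. Further related genes (Bhlhe40, Vhl, Pdk2, Tkt and Ddit4l) and the markers were named after their values were seen.

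Replicate numbers may pair arrays across groups: the difference between replicates correlated across genes at 0.17 to 0.42 over the 6 pairs of groups, and replicate 1 arrays share a date in their names. The replicate block, an alternative, therefore pairs arrays by number. The remaining ones were a term for the suffix RR1 in array names, a variance trend, removal of genes under the 40th percentile, the mean of all probe sets, removal of _x_at and _s_at probe sets, quantile normalization, log2(value + 16), the 4 arrays compared alone, and leaving out each array. The suffix RR1 is on the second array of both NOD groups and the first array of unstimulated NOD.Idd3. Its term thus partly overlaps with strain and replicate number, and its meaning is unknown here.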

Additional observations from a re-analysis of the deposited data

How the results depend on the processing

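No member that was called changed sign under any alternative. In NOD the 4 rises became 7 with the replicate block and 2 to 4 with 1 array left out. The 1 fall became 2 with the block, the variance trend, removal of genes under the 40th percentile, quantile normalization or log2(value + 16), each time by adding Slc2a3, and 0 to 1 with 1 array left out. In NOD.Idd3 the 4 rises became 1 to 4 with 1 array left out, and with the variance trend 1 member fell in place of 0. Over both strains the 7 rises became 4 to 9 and the 2 falls 2 to 3 with 1 array left out, and 1 fall was called without _x_at and _s_at probe sets, where Slc2a3 was lost. Over all genes, the averaged count of 885 rises and 1164 falls lay at 508 to 798 and 597 to 1341 with 1 array left out, and at 1311 and 1771 with the replicate block. In NOD the 330 rises and 387 falls lay at 58 to 311 and 19 to 585 with 1 array left out, at 231 to 696 and 185 to 890 otherwise. In NOD.Idd3 the 344 and 228 lay at 52 to 331 and 4 to 293, and otherwise at 183 to 667 and 52 to 540. The cause was not tested. No member was called for a strain contrast or for the difference in response under any alternative. Fits of the 4 arrays compared alone apply to 4 of the 7 contrasts. The dim genes P4ha2 and Aldoc limit what could be detected.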

Other observations

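Gapdh, a glycolytic enzyme gene often taken as a reference, is absent from the 18193 genes, but its 3′ control probe set can be read. It stood at 13.82 and 13.99 in unstimulated NOD, 13.56 and 13.89 with PGN, 13.76 and 13.99 in unstimulated NOD.Idd3 and 13.72 and 13.87 with PGN. Replicate 2 was the higher in each group, as for 9 of the 30 members, and the conditions overlapped.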
